A study of Mus musculus with 6 samples.

Results

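Chemokines are small secreted proteins that direct the movement of leukocytes, and their receptors are G protein–coupled receptors on the cells that respond. They are named by the spacing of their cysteines as CC, CXC, CX3C, and XC chemokines, and in obese white fat they are best known for the recruitment of monocytes that become tissue macrophages. The genes described here are those whose symbol is Ccl, Cxcl, Ccr, or Cxcr followed by a number, with *Cx3cl1*, *Cx3cr1*, and *Xcl1*. This choice used names only and no measured value. It gave the 49 genes described here of the 20630 named genes on the array, of which 33 encode ligands and 16 encode receptors. Symbols with a further letter, such as *Ccl27a*, were treated as related genes.

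RNA came from interscapular brown adipose tissue (iBAT) of 16-week-old male mice. The 3 control mice and the 3 *ob/ob* mice, obese through a germline mutation of leptin that every cell carries, shared the C57BL/6 background by their labels. Each sample was labeled with Cy3 and hybridized to its own Agilent mouse array. The labels do not say whether a sample pooled several animals, so p values measure the spread between these samples only. Since the tissue was measured in bulk, fewer cells of a type and less RNA per cell cannot be told apart.

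Values are log2 signals after quantile normalization, and each gene is read from its brightest probe. No spot was saturated, and 83.5% to 89.9% of spots lay well above background. *Lep* read 4.57 to 5.74 in controls and 5.83 to 9.33 in *ob/ob* mice, which checks no label, since the mutated gene is still transcribed. The 9 brown adipocyte markers were all detected in the tissue and all lower on average in *ob/ob* mice, 4 of them without overlap, against 4.19% of all named genes tested. A pair of arrays stood apart from their groups. Over the 42 chemokine system genes tested, the Spearman correlation of control 3 was 0.933 with *ob/ob* 1 and 0.917 with *ob/ob* 2, compared with 0.742 and 0.758 with the other controls. That of *ob/ob* 3 with the other 5 arrays was 0.513 to 0.698. The arrays share all probes, and these correlations are descriptions. Whether a label was exchanged or these samples were dissected differently was not tested, and each fold change over all 6 arrays takes the labels as given. Results are therefore also given without control 3 and *ob/ob* 3, a choice made after seeing the data.

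Of the 49 genes, 42 were well above background on at least 3 of 6 arrays and were tested, each of them detected on at least 1 array of both groups, and 35 were detected on all 6. The other 7 were *Ccl1*, *Ccl20*, *Ccr1*, *Cxcl2*, *Cxcl3*, *Cxcl10*, and *Cxcl17*, with *Ccl1* and *Ccl20*, which attract T cells and dendritic cells, above background on no array. In limma's fit across all 35448 probes, no chemokine or receptor passed an adjusted p of 0.05, as 0% of the 19007 named genes tested did. At an unadjusted p under 0.05, limma called 3 of 42, or 7.14%, against 3.71% of all named genes, and the methods' t-test called 0. The groups did not overlap for 4 of 42 genes that were higher in *ob/ob* mice, or 9.52%, against 3.76% of all named genes. They did not overlap for 0 of 42 genes that were lower, against 4.19%. The median log2 fold change (*ob/ob* minus control) was 0.04, with 23 genes higher and 19 lower, compared with a median of −0.085 over all named genes.

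**Figure D1:**
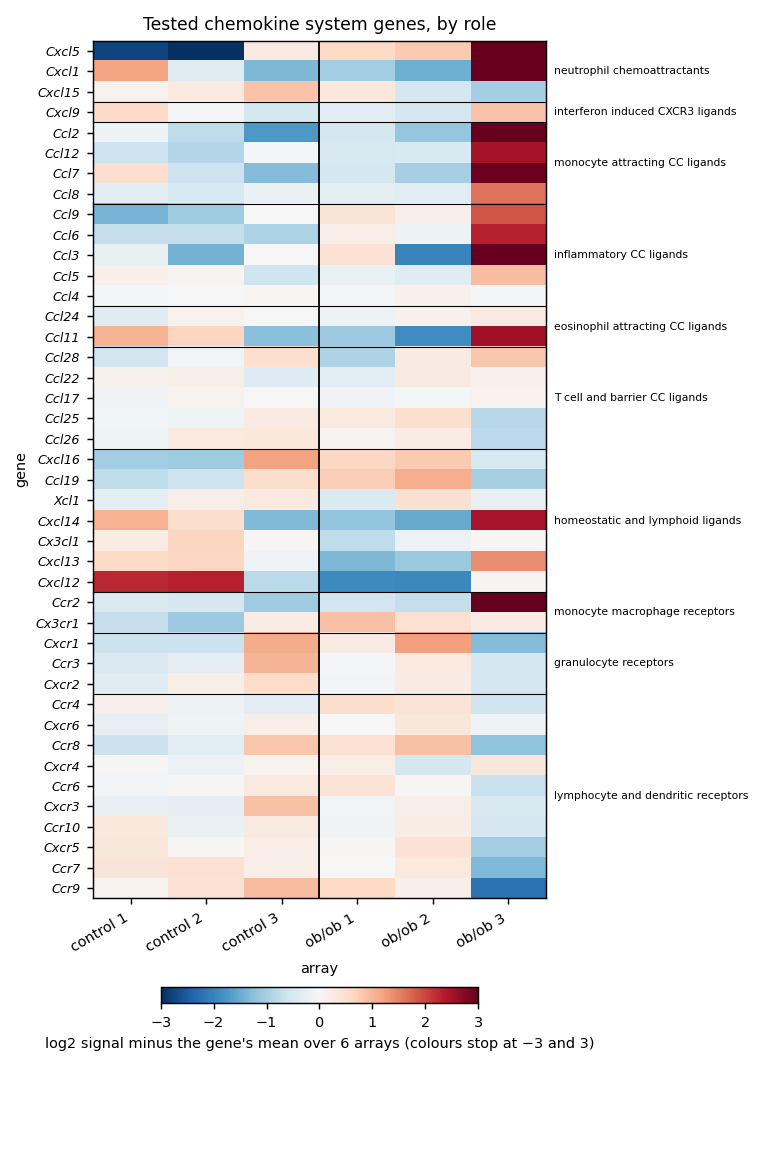
Each row is 1 of the 42 tested genes and each column an array, and the color is the log2 signal minus that gene's mean over the 6 arrays (control 1 to 3 left of the line, *ob/ob* 1 to 3 right of it). Many of the strongest colors lie on *ob/ob* 3, which was the highest array for 18 genes (42.9%), against 30.5% of all named genes. It was the lowest array for 15 genes, for which the share of all named genes was not counted.

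The question for the CXC ligands that attract neutrophils was whether obese iBAT held more of their transcripts. *Cxcl5*, which acts through CXCR2, had the largest difference of all 42 genes. Its log2 signal was 5.39 on control 1, 4.82 on control 2, and 8.40 on control 3, against 8.74, 8.92, and 12.59 on *ob/ob* 1, 2, and 3. All *ob/ob* arrays lay above all controls, although control 3 came within 0.33 log2 units of *ob/ob* 1. The mean log2 fold change was 3.88 ± 1.36 (SE; 14.7-fold), with a 95% interval of 0.59 to 7.17, an unadjusted limma p of 0.028, and an adjusted p of 1.0. An exact permutation test gave a 2-sided p of 0.10, the smallest that 3 against 3 samples allow. Without control 3 and *ob/ob* 3, the log2 fold change was 3.73 (adjusted limma p 3.25e-05). In that setting, chosen after seeing the data, 49.5% of all named genes had an adjusted p under 0.05. Without *ob/ob* 3 alone, the log2 fold change of *Cxcl5* was 2.63 (limma p 0.064).

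Of the other neutrophil attractants, *Cxcl1* read 8.68, 7.13, and 6.13 in controls and 6.45, 6.02, and 10.53 in *ob/ob* mice, a log2 fold change of 0.35 ± 1.32 (SE). *Cxcl2* and *Cxcl3* were not well above background on any control array and on no *ob/ob* array but *ob/ob* 3, where their log2 signals were 7.57 and 8.67. Each control array was given the lowest signal of any probe well above background there, or the gene's own signal where higher. Set against these, the *ob/ob* means were 1.71-fold higher for *Cxcl2* and 2.12-fold higher for *Cxcl3*. Neither value is a lower bound, since *ob/ob* 1 and 2 were themselves not above background. They read 3.34 and 3.31 for *Cxcl2* and 3.05 and 3.28 for *Cxcl3*, so both values rest on *ob/ob* 3. *Cxcl15*, a lung-expressed member of the family, read 4.52, 4.72, and 5.27 in controls and 4.73, 3.89, and 3.41 in *ob/ob* mice. Thus *Cxcl5* alone among these 5 genes was higher on *ob/ob* 1 and 2 than on every control.

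*Cxcl1*, *Cxcl2*, *Cxcl3*, *Cxcl5*, and *Cxcl15* lie close together on chromosome 5, with at most 3 other protein-coding genes between neighbors in the RefSeq annotation of GRCm38.p6. The 100 bases before the start of *Cxcl1*, *Cxcl2*, and *Cxcl3* are shown because these genes shared the high signal on *ob/ob* 3. Capitals mark matches to the kappaB consensus, the sequence bound by NF-κB. The sequences are from RefSeq (GRCm38.p6), all on the plus strand, at chr5:90891145-90891244, chr5:90903799-90903898, and chr5:90786001-90786100, in the order of the lines.
Cxcl1: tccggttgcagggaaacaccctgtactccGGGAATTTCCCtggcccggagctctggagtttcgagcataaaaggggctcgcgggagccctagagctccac
Cxcl2: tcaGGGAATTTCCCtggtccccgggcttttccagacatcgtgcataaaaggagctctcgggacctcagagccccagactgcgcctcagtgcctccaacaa
Cxcl3: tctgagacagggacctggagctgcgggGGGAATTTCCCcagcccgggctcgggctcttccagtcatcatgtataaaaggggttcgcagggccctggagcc

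The run in capitals, GGGAATTTCCC, holds overlapping matches on both strands in each promoter, and its first base lies 71, 97, and 73 bases before the start of *Cxcl1*, *Cxcl2*, and *Cxcl3*. Over the 36 of 49 genes with a promoter in the RefSeq table, the consensus occurred on either strand within 250 bases before the start of 8 (22.2%), *Cxcl1*, *Cxcl2*, *Cxcl3*, *Cxcl10*, *Ccl9*, *Ccl20*, *Ccr3*, and *Ccr6*. It occurred in 4.46% of all 27025 genes with a promoter. A pattern of interferon-response elements, GAAANNGAAA, occurred in 3 of the 36 (*Ccl19*, *Cxcl10*, and *Cxcl14*) and in 3.46% of all genes. A match of letters is a description and shows no binding.

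*Cxcl9* and *Cxcl10*, interferon-induced ligands of the T cell receptor CXCR3, showed no separation of the groups. *Cxcl9* read 5.74 to 6.83 in controls and 5.73 to 7.11 in *ob/ob* mice, a log2 fold change of 0.0090, and its second probe had −1.07 ± 1.40 (SE). *Cxcl10* was detected on 1 control and 1 *ob/ob* array only, and its highest signals were 5.95 on control 1 and 7.53 on *ob/ob* 3. *Cxcr3* itself had a log2 fold change of −0.24 ± 0.44 (SE).

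The 4 CC ligands that attract monocytes, *Ccl2*, *Ccl7*, *Ccl8*, and *Ccl12*, were all higher on average in *ob/ob* mice, and none passed the test or separated the groups. *Ccl2*, which encodes MCP-1 and acts on CCR2, read 8.09, 7.48, and 6.54 in controls and 7.73, 7.09, and 12.58 in *ob/ob* mice. *Ob/ob* 1 and 2 lay within the range of the controls, and *ob/ob* 3 lay 4.49 log2 units above the next highest array. Its log2 fold change was 1.76 ± 1.45 (SE), with a 95% interval of −1.75 to 5.27 (limma p 0.27, adjusted p 1.0). Without control 3 and *ob/ob* 3, it was −0.38 (adjusted limma p 0.37).

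*Ccl7*, *Ccl8*, and *Ccl12* repeated this pattern, with *ob/ob* 3 at 9.93, 7.33, and 7.79, or 2.45, 1.82, and 2.57 log2 units above the next highest array. Their log2 fold changes over all 6 arrays were 0.95, 0.67, and 1.05, and without the pair of arrays they were −0.70, 0.10, and 0.29. *Ccl11*, which encodes the eosinophil attractant eotaxin and lies among them on chromosome 11, read 8.80, 8.40, and 6.50 in controls and 6.69, 5.89, and 10.32 in *ob/ob* mice. The other eosinophil attractant, *Ccl24*, varied little, at 5.76 to 6.22 in controls and 5.97 to 6.40 in *ob/ob* mice.

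The inflammatory CC ligands held 2 further genes whose groups separated. *Ccl9* and *Ccl6*, rodent ligands of CCR1, are neighbors on chromosome 11. *Ccl9* read 7.08, 7.39, and 8.49 in controls and 8.84, 8.64, and 10.34 in *ob/ob* mice. Every *ob/ob* array lay above every control, by 0.16 log2 units where the groups came closest, and control 3 was again the highest control. The log2 fold change was 1.62 ± 0.62 (SE; 3.08-fold), with a 95% interval of 0.13 to 3.11 (limma p 0.037, adjusted p 1.0; exact permutation p 0.10).

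*Ccl6* read 6.97, 6.97, and 6.74 in controls and 7.88, 7.54, and 10.01 in *ob/ob* mice. Its controls were close together and control 3 was the lowest of them, while the *ob/ob* mice spread widely. The log2 fold change was 1.58 ± 0.68 (SE; 2.99-fold; limma p 0.057, adjusted p 1.0; exact permutation p 0.10), and it was 0.81 without *ob/ob* 3 (limma p 0.029, adjusted p 0.50). Without both control 3 and *ob/ob* 3, the values were 1.51 for *Ccl9* and 0.74 for *Ccl6*.

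The 100 bases before the starts of *Ccl9* and *Ccl6* are shown to compare these neighbors, both on the minus strand, at chr11:83578637-83578736 and chr11:83593088-83593187 of GRCm38.p6 (RefSeq). Capitals again mark the kappaB consensus, whose match in *Ccl9* lies on the strand opposite to the gene, with its bases 35 to 26 before the start. No match lies in the stretch of *Ccl6* printed here.
Ccl9: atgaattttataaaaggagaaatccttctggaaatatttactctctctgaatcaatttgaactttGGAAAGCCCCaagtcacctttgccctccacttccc
Ccl6: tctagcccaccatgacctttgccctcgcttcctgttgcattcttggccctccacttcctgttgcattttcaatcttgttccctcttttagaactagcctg

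The other inflammatory CC ligands did not separate the groups after quantile normalization. *Ccl3*, which encodes MIP-1α, read 6.58, 5.39, and 6.80 in controls and 7.26, 4.83, and 10.02 in *ob/ob* mice. *Ccl5*, which encodes RANTES, read 6.28, 6.21, and 5.51 in controls and 5.92, 5.75, and 7.06 in *ob/ob* mice, a log2 fold change of 0.24 ± 0.48 (SE; limma p 0.63, adjusted p 1.0). For *Ccl5*, *ob/ob* 1 and 2 lay between the controls, and the difference was −0.17 without *ob/ob* 3. *Ccl4*, which encodes MIP-1β, read 16.1 to 16.2 in controls and 16.1 to 16.3 in *ob/ob* mice. Its log2 fold change was −0.0048, with a 95% interval of −0.71 to 0.70. These were the highest levels among the genes tested, and *ob/ob* 1 and 3 shared the value 16.097. Quantile normalization gives probes of the same rank the same value. It leaves little room for a difference at such levels, so equal *Ccl4* levels cannot be read from it. Under normexp the log2 fold change was −0.17 and the *Ccl4* groups no longer overlapped, and under 75th percentile scaling it was −0.30.

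**Figure D2:**
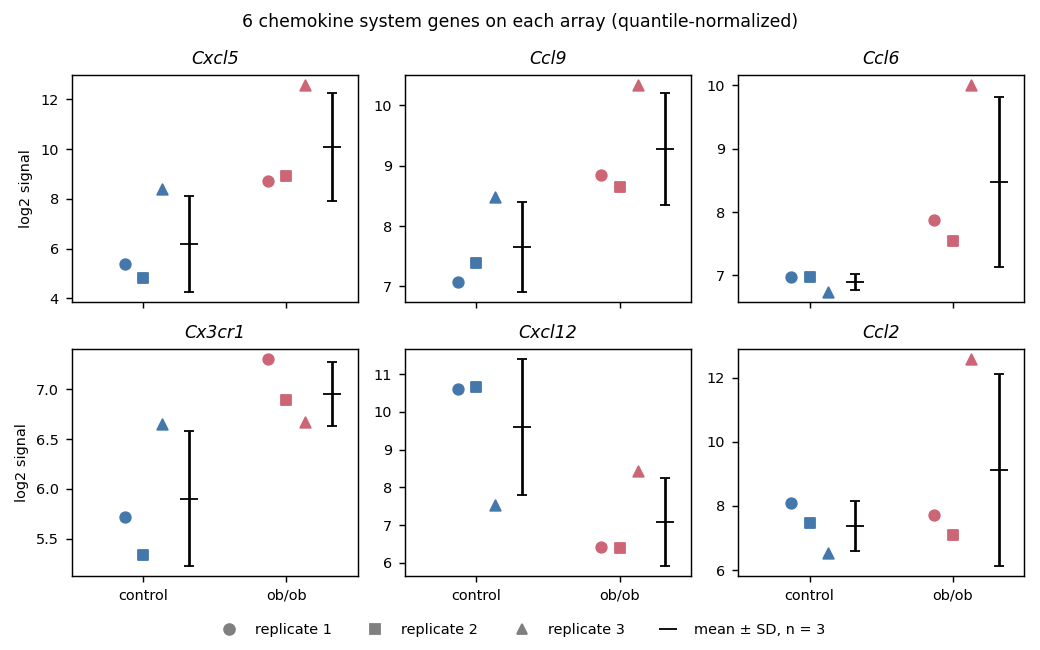
Log2 signal (vertical axes, which differ in range between panels and do not start at 0) of 6 genes on the 3 control arrays (blue) and the 3 *ob/ob* arrays (red), with the marker shape giving the replicate and black bars the mean ± SD (n = 3). The groups are apart for *Cxcl5*, *Ccl9*, *Ccl6*, and, by 0.017 log2 units, *Cx3cr1*, whereas *Cxcl12* and *Ccl2* overlap.

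Among ligands known for cell traffic in resting tissue, *Cxcl12*, the stromal ligand of CXCR4, had the lowest log2 fold change of all 42 genes. It read 10.60, 10.67, and 7.53 in controls and 6.42, 6.40, and 8.42 in *ob/ob* mice. Control 1 and 2 were high and *ob/ob* 1 and 2 low, with control 3 below *ob/ob* 3, so the groups overlapped. The log2 fold change was −2.52 ± 1.02 (SE), with a 95% interval of −4.99 to −0.051 (limma p 0.047, adjusted p 1.0; exact permutation p 0.20). Without control 3 and *ob/ob* 3, it was −4.22 (adjusted limma p 1.40e-05), where 49.5% of all named genes had an adjusted p under 0.05. A second, dimmer *Cxcl12* probe, detected on 2 arrays of each group, read 6.58, 5.88, and 4.09 in controls and 3.74, 4.77, and 7.36 in *ob/ob* mice. That probe had a log2 fold change of −0.22 ± 1.08 (SE), and the probes thus differed in the size of the change. Of the 6 endothelial markers, 5 were lower on average and none was without overlap. The exception was *Pecam1*, with a log2 fold change of 0.048. It was lowest on *ob/ob* 3, at 9.80 against 12.44 and 12.58 on *ob/ob* 1 and 2. The median of the endothelial markers moved with the brighter probe, at 9.16, 9.07, and 7.15 in controls and 5.81, 5.77, and 8.11 in *ob/ob* mice. Their summed signal was 6455.5 to 9912 in controls and 3636 to 6343 in *ob/ob* mice. Unlike the brighter probe, their sum was lowest on *ob/ob* 3. Their part in the *Cxcl12* values was not tested.

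*Cx3cl1*, the membrane-bound ligand of CX3CR1, read 6.69, 7.13, and 6.50 in controls and 5.72, 6.31, and 6.50 in *ob/ob* mice. The groups overlapped only between control 3 and *ob/ob* 3, with a log2 fold change of −0.60 ± 0.37 (SE; limma p 0.16, adjusted p 1.0). After scaling each array to its 75th percentile, or after normexp background correction, the *Cx3cl1* groups no longer overlapped. *Cxcl13*, which guides B cells, read 5.76, 5.80, and 5.04 in controls and 3.82, 4.06, and 6.56 in *ob/ob* mice. *Cxcl14* followed the order of *Cxcl1*, at 7.76, 7.25, and 5.38 in controls and 5.53, 5.19, and 9.19 in *ob/ob* mice.

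*Cxcl16*, the ligand of CXCR6, went the other way, at 6.69, 6.66, and 8.93 in controls and 8.35, 8.51, and 7.24 in *ob/ob* mice. *Ccl19*, a ligand of CCR7, read 7.17, 7.32, and 8.46 in controls and 8.66, 9.02, and 6.94 in *ob/ob* mice. Its genome copies are nearly identical, so the *Ccl19* signal cannot be assigned to a single copy, and its other 2 tested probes had log2 fold changes of 0.22 and −0.015. For both genes, control 3 was close to *ob/ob* 1 and 2 and far from control 1 and 2. In all, 2 of the 7 homeostatic ligands tested were higher on average and 5 lower, with a median of −0.16, and none separated the groups. The 5 tested ligands of T cells and barrier tissues, *Ccl17*, *Ccl22*, *Ccl25*, *Ccl26*, and *Ccl28*, had small differences, from −0.32 to 0.08.

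Both tested receptors of monocytes and macrophages described here, *Cx3cr1* and *Ccr2*, were higher on average in *ob/ob* mice. *Cx3cr1*, the fractalkine receptor of monocytes and tissue macrophages, read 5.72, 5.34, and 6.65 in controls and 7.30, 6.89, and 6.67 in *ob/ob* mice. Its groups were separate by only 0.017 log2 units, between control 3 and *ob/ob* 3. The log2 fold change was 1.05 ± 0.45 (SE; 2.07-fold), with a 95% interval of −0.03 to 2.13 (limma p 0.055, adjusted p 1.0; exact permutation p 0.10). Under 75th percentile scaling and under normexp, the *Cx3cr1* groups overlapped. A second, dimmer *Cx3cr1* probe was detected on 1 array only and was not tested. It read 3.41, 3.93, and 3.79 in controls and 4.10, 3.98, and 3.33 in *ob/ob* mice, a log2 fold change of 0.09. Unlike the other separated genes, *Cx3cr1* by its brighter probe was lower on *ob/ob* 3 than on *ob/ob* 1 and 2. Without control 3 and *ob/ob* 3, its difference was 1.57 (adjusted limma p 0.0017), where 49.5% of all named genes had an adjusted p under 0.05.

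*Ccr2*, the receptor of CCL2, read 5.52, 5.45, and 4.88 in controls and 5.37, 5.25, and 9.26 in *ob/ob* mice. For *Ccr2*, *ob/ob* 1 and 2 lay within the range of the controls. The log2 fold change was 1.34 ± 1.1 (SE; limma p 0.26, adjusted p 1.0), and it was −0.17 without control 3 and *ob/ob* 3. *Ccr1*, the receptor of CCL6 and CCL9, was detected on 1 array of each group and was not tested. It read 3.63 to 4.58 on the controls, 3.73 and 3.41 on *ob/ob* 1 and 2, and 9.71 on *ob/ob* 3.

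The granulocyte receptors were lowest on *ob/ob* 3. *Cxcr2*, the receptor of CXCL5, read 6.37, 6.90, and 7.26 in controls and 6.64, 6.97, and 6.18 in *ob/ob* mice, a log2 fold change of −0.24 ± 0.40 (SE; limma p 0.56, adjusted p 1.0). *Cxcr1* read 8.22, 8.20, and 9.97 in controls and 9.11, 10.08, and 7.54 in *ob/ob* mice. For both receptors *ob/ob* 3 was the lowest array and the groups overlapped. *Ccr3*, the eosinophil receptor, had a log2 fold change of −0.20 ± 0.50 (SE).

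Of the 10 receptors of lymphocytes and dendritic cells, 4 were higher and 6 lower, with a median of −0.20, and all overlapped between groups. A second, dimmer *Cxcr6* probe did not overlap, at 5.55, 5.13, and 5.54 in controls and 5.94, 5.88, and 5.83 in *ob/ob* mice, a log2 fold change of 0.47 beside 0.14 for the brighter probe. *Cxcr4* read 5.93, 5.73, and 6.02 in controls and 6.11, 5.39, and 6.25 in *ob/ob* mice. Its log2 fold change was 0.02, with a 95% interval of −0.85 to 0.90 (limma p 0.95, adjusted p 1.0), beside the −2.52 of its ligand *Cxcl12*. *Ccr9*, the gut-homing receptor of T cells, read 14.25, 14.59, and 15.07 in controls and 14.73, 14.29, and 11.93 in *ob/ob* mice. *Ccr8*, found on regulatory T cells, read 10.69, 11.02, and 12.16 in controls and 11.79, 12.23, and 10.14 in *ob/ob* mice. For *Ccr9* and *Ccr8*, *ob/ob* 3 was the lowest array, and their log2 fold changes were −0.98 ± 0.77 (SE) and 0.10 ± 0.68 (SE). The second *Ccr8* probe was detected on 1 array of each group and did not pass the filter. It read 3.32, 3.96, and 3.93 in controls and 3.99, 4.15, and 1.90 in *ob/ob* mice. The probes thus disagree on the level of *Ccr8*, and its abundance is uncertain. *Ccr9* had 1 probe, so its level could not be compared in this way.

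**Figure D3:**
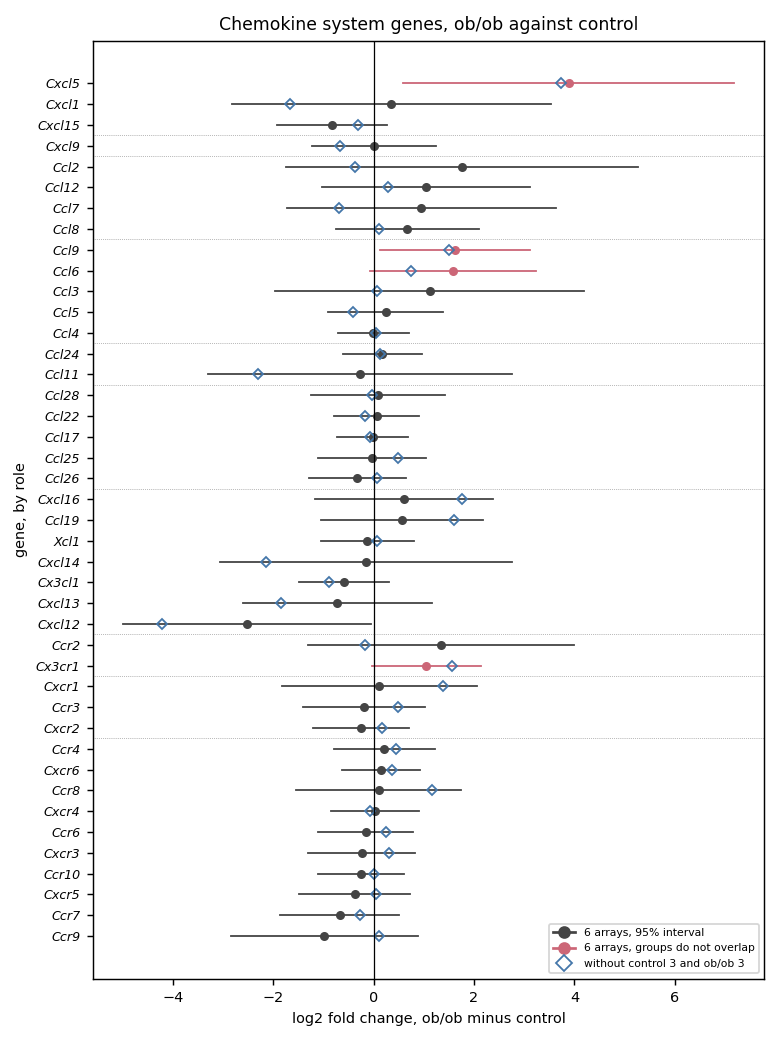
Log2 fold change (*ob/ob* minus control; dots, with 95% intervals from limma) of the 42 tested genes, ordered by role with dotted lines between roles, and the same difference without control 3 and *ob/ob* 3 (open diamonds). The intervals of 39 genes include 0, and red marks the 4 genes whose groups did not overlap.

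The values on *ob/ob* 3 formed the widest pattern in the class. This array lay over 1 log2 unit above the next highest array for 12 of 42 tested genes (28.6%), against 11.5% of all named genes. The 12 were 11 ligands, *Ccl2*, *Ccl3*, *Ccl6*, *Ccl7*, *Ccl8*, *Ccl9*, *Ccl11*, *Ccl12*, *Cxcl1*, *Cxcl5*, and *Cxcl14*, and the receptor *Ccr2*. Of the 7 genes not tested, 4 did the same, *Ccr1*, *Cxcl2*, *Cxcl3*, and *Cxcl10*. By position, they included 5 of the 6 genes of the group around *Ccl2* on chromosome 11, 3 of the 5 of the group from *Ccl5* to *Ccl4*, and 4 of the 5 of the group around *Cxcl1*. This is a description of 1 sample, with no test.

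Markers of other cells moved on the same array. The neutrophil markers *S100a8* and *S100a9*, subunits of calprotectin, read 4.53 to 7.59 and 6.02 to 8.64 in controls and 10.69 and 11.94 on *ob/ob* 3. Another neutrophil marker, *Retnlg*, rose with them, to 8.21 on *ob/ob* 3 against 6.00 to 6.15 in controls. *Mpo* was highest there by a small margin, at 4.87 against 4.78 on *ob/ob* 1. By contrast, *Elane*, which encodes neutrophil elastase, was lowest on *ob/ob* 3 (9.87, against 11.87 to 12.86 in controls). *Camp* and *Csf3r* were lower there than on *ob/ob* 1 and 2. Even so, *Csf3r* separated the groups upward, at 12.14 to 12.62 in controls and 12.79 to 13.06 in *ob/ob* mice. It was the only 1 of the 7 neutrophil markers to do so, against 3.76% of all named genes. *Csf3r* and *Elane* had the highest mean levels of these markers in both groups. Over the 7 neutrophil markers, 6 were higher on average, and their summed signal was 9660 to 14190 in controls and 12949 to 13964 in *ob/ob* mice. Of the 9 macrophage markers tested, 6 were higher, and their summed signal was 4449 to 15426 in controls and 3429 to 5238 in *ob/ob* mice. *Cd14* and *Fcgr1* separated the groups upward, against 3.76% of all named genes, and *Csf1r*, the receptor of the macrophage growth factor CSF1, read 8.01 to 9.82 in controls and 8.70 to 10.35 in *ob/ob* mice. The other 3 were lower on average, *Itgam* by a log2 fold change of −1.43, *Adgre1* by −0.21, and *Mertk* by −0.28. *Itgam* was the brightest of these markers and weighed most in the sum. On *ob/ob* 3, *Mrc1*, *Itgax*, *Fcgr1*, *Lyz2*, *Cd14*, and *Mertk* were at their highest. *Mrc1* read 9.98 there, against 3.54 to 5.99 in controls. *Itgam* and *Adgre1* were lowest on *ob/ob* 3, and *Csf1r* was lower there than on *ob/ob* 1 and 2.

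Transcripts of other tissues varied over a wide range. The median of 8 skeletal muscle markers was 9.98 on control 1, 10.26 on control 2, and 7.44 on control 3, against 5.42, 5.45, and 12.49 on *ob/ob* 1, 2, and 3. Their summed signal was 3435 to 41489 in controls and 524.6 to 94738 in *ob/ob* mice. The summed signal of 5 erythrocyte markers was 1381 to 12540 in controls and 757.9 to 32131 in *ob/ob* mice, highest on *ob/ob* 3. Of 7 T cell markers, 2 were higher and 5 lower, *Cd3e* and *Cd8a* without overlap (against 4.19% of all named genes), with a summed signal of 1513 to 4188 in controls and 886.9 to 4133.5 in *ob/ob* mice, lowest on *ob/ob* 3. The part of these cells in the chemokine values was not tested.

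**Figure D4:**
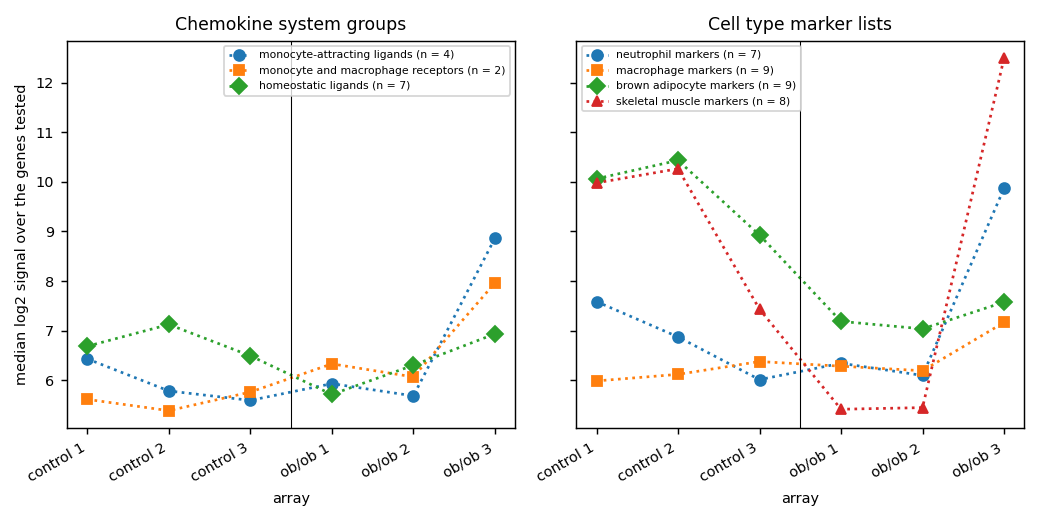
Median log2 signal over the tested genes of 3 chemokine system groups (left) and 4 lists of cell type markers (right) on each array, with the number of genes in the legend; dotted lines only link points of a list. The monocyte-attracting ligands reach 8.86 and the monocyte and macrophage receptors 7.96 on *ob/ob* 3, and skeletal muscle markers reach 12.49 there. The receptor median on *ob/ob* 3 lies between *Ccr2* at 9.26 and *Cx3cr1* at 6.67, and *Cx3cr1* was lower there than on *ob/ob* 1 and 2.

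Without control 3 and *ob/ob* 3, the picture changed for the whole array. The remaining 2 against 2 arrays gave 14 of 42 chemokine system genes with an adjusted limma p under 0.05 (33.3%), a smaller share than the 49.5% of all named genes. The groups did not overlap for 16 genes that were higher and 10 that were lower, against 37.9% and 36.9% of all named genes. The 4 genes that separated all 6 arrays were among the 16, as they had to be in any subset of the arrays. *Cxcl12* was among the 10. With control 3 alone left out, 7 genes separated upward and 3 downward, against 12.7% and 11.4% of all named genes, and with *ob/ob* 3 alone left out, 7 and 3, against 14.9% and 14.7%. Between *ob/ob* 1 and 2 and control 1 and 2, the log2 fold changes of *Ccl11*, *Cxcl1*, *Cxcl13*, and *Cxcl14* were −2.31, −1.67, −1.84, and −2.14, while those of *Cxcl16* and *Ccl19* were 1.75 and 1.60.

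The scan could be checked in part, since 1 scan held control 1 and 3 together with *ob/ob* 1, whereas the remaining 3 arrays were scanned apart. Within that scan, the difference between *ob/ob* 1 and the mean of control 1 and 3 was 1.84 for *Cxcl5*, 1.06 for *Ccl9*, 1.02 for *Ccl6*, 1.12 for *Cx3cr1*, and −2.64 for *Cxcl12*. For *Cxcl5*, *Ccl9*, *Ccl6*, and *Cx3cr1* the sign was fixed in advance, since *ob/ob* 1 lay above every control. Only the size of these differences is informative, and a part of the scan in them was not tested. With the scan as a block the estimates are the same, since no other scan holds both groups, and none of the 42 genes had an unadjusted limma p under 0.05, against 0.552% of all named genes. For *Ccl2* the within-scan difference was 0.41 and for *Ccr2* 0.17.

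Among related genes, *Ackr1*, an atypical receptor that binds many chemokines without G protein signaling, read 5.93, 5.52, and 5.73 in controls and 6.70, 6.74, and 6.68 in *ob/ob* mice. Both groups were tight and apart, and the log2 fold change was 0.98 ± 0.30 (SE; limma p 0.016, adjusted p 1.0; exact permutation p 0.10). *Ccl27a*, a ligand known from skin, read 9.69, 9.55, and 7.77 in controls and 6.71, 6.69, and 7.73 in *ob/ob* mice, a log2 fold change of −1.96 ± 0.63 (SE). Its groups did not overlap, although control 3 and *ob/ob* 3 came within 0.037 log2 units. Of the 12 related genes tested, 5 were higher and 7 lower. The groups did not overlap for 1 of 12 that was higher, *Ackr1*, against 3.76% of all named genes. They did not overlap for 2 of 12 that were lower, against 4.19%, namely *Ccl27a* and *Xcr1*, the receptor of XCL1 on dendritic cells.

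The signaling genes downstream of the receptors showed no common direction. Of 30 tested, 18 were higher and 12 lower, with a median of 0.11 and no adjusted p under 0.05. The groups separated upward for *Gng2* and *Rac2*, a G protein subunit and a leukocyte GTPase, and for the β-arrestin gene *Arrb1*, 3 of 30 against 3.76% of all named genes. They separated downward for 1 of 30, against 4.19%, namely *Grk3*, a kinase that phosphorylates active receptors, which read 6.95 to 7.81 in controls and 6.18 to 6.69 in *ob/ob* mice (limma p 0.027, adjusted p 1.0). *Rgs2*, which shortens G protein signals, had a log2 fold change of −1.80 with overlapping groups (limma p 0.032, adjusted p 1.0). Of 19 tested cytokine and NF-κB genes, 10 were higher and 9 lower. The groups separated upward for 1 of 19, against 3.76% of all named genes. It was *Traf6*, an adaptor of the IL-1 receptor pathway (log2 fold change 0.98, limma p 0.045, adjusted p 1.0).

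The differences of a ligand and its receptor can be set side by side. *Cxcl5* stood at 3.88 and its receptor *Cxcr2* at −0.24, *Cxcl12* at −2.52 and *Cxcr4* at 0.02, and *Cx3cl1* at −0.60 and *Cx3cr1* at 1.05. For *Ccl2* and *Ccr2*, the values were 1.76 and 1.34, both carried by *ob/ob* 3. No relation between ligand and receptor was tested.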

How the data were processed

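For each of the 6 arrays (1 per sample), the authors deposited Agilent Feature Extraction output (version 11.0.1.1 in the submitters' processing notes), with the spot intensity corrected for background within the array. They also deposited log2 values after quantile normalization in GeneSpring, used here as an alternative. The scanner's flags for spots well above background were used for detection. After removal of 104 of 39429 probes for outlier flags, log2 intensities were averaged over the spots of each probe, arrays were quantile normalized, and probes detected on at least 3 of 6 arrays were tested with limma (version 3.58.1; R version 4.3.3), with Benjamini-Hochberg adjustment over all 35448 probes. Names came from RefSeq accessions through the annotation of GRCm38.p6, which named 27234 of 28684 RefSeq probes. The array was annotated on another build, so its coordinates are not given.

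The genes and lists were chosen with earlier results of these data known. Values on every array were to be given for tested genes with an unadjusted p under 0.05 or without overlap, for the 5 with the highest mean level, and for others set by name. 1 gene that the rule covers and 1 cell type marker are not reported here, and member and list counts are without them. Values of other genes were added after they were seen. Calculations were tested on simulated data. The alternatives were 75th percentile scaling, normexp (offset 50), the authors' values, other detection filters, the methods' t-test, replicate and scan blocks, the mean of a gene's probes, and leaving out arrays. Arrays carry no counts, and the number of samples limits precision. Figures were made with matplotlib (version 3.10.9).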

Additional observations from a re-analysis of the deposited data

How the results depend on the processing

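The median log2 fold change of 0.04 turned to −0.21 after 75th percentile scaling, where the median of all named genes was −0.30, and to −0.046 with the scan block. It was 0.0012 to 0.11 when an array was left out. The count of genes without overlap, 4 higher and 0 lower, was 4 to 7 higher and 1 to 3 lower when an array was left out, 16 and 10 without control 3 and *ob/ob* 3, and had 2 lower genes under normexp and 1 under 75th percentile scaling. Those 2 settings lost *Cx3cr1* from the higher genes. Most other settings use the same values or fewer arrays and could not have lost any. Shares of all named genes without overlap were 4.04% to 14.9% higher and 4.63% to 14.7% lower when an array was left out. They were 37.9% higher and 36.9% lower without the pair. Under normexp they were 3.65% and 4.21%, and under 75th percentile scaling 2.33% and 4.41%. The 3 genes with an unadjusted limma p under 0.05 became 1 under 75th percentile scaling (*Cxcl5*) and under normexp (*Ccl9*), 0 with the methods' t-test and with the scan block, 0 to 5 when an array was left out (0 without control 1 or control 2, 5 without control 3), and 15 without control 3 and *ob/ob* 3. These compare with 9.55% of all named genes without control 3, 10.3% without *ob/ob* 3, and 55.3% without both, where the 15 were 35.7% of the 42. No adjusted p passed 0.05 in any setting but that one, which gave 14. With the replicate block, 2 genes had an unadjusted p under 0.05 and the median stayed at 0.04. Counts of genes without overlap have no value under either block. Same-numbered samples deviated in opposite directions from their group means (correlations −0.78, −0.66, and −0.85). Since control 3 and *ob/ob* 3 stood apart from their groups, these correlations cannot decide whether the numbers pair samples. With the replicate block the SE was 0.50 for *Cxcl5* and 0.49 for *Ccl9*, against 1.36 and 0.62 without it. It was larger for *Ccl6*, *Cx3cr1*, and *Cxcl12*, at 0.75, 0.59, and 1.26 against 0.68, 0.45, and 1.02.

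Signs turned for genes near 0 or carried by a single array. Without control 3 and *ob/ob* 3, the log2 fold change was −0.38 for *Ccl2*, −0.42 for *Ccl5*, −0.17 for *Ccr2*, 0.053 for *Ccl4*, 0.097 for *Ccr9*, 0.17 for *Cxcr2*, and −0.080 for *Cxcr4*. With the scan block it was 0.077 for *Ccr9*. *Cxcr4* was −0.049 under normexp and −0.22 under 75th percentile scaling. When an array was left out, *Ccl4* ranged from −0.072 to 0.029, *Ccl5* from −0.17 to 0.48, *Ccr8* from −0.32 to 0.72, *Cxcr1* from −0.47 to 0.79, and *Cxcr4* from −0.14 to 0.29. The cause was not tested. Signs of the 5 genes with an unadjusted p under 0.05 or without overlap held in all settings. For the genes without overlap, settings that use the same values or fewer arrays could not have turned the sign. Their unchanged signs in those settings are therefore no support.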
